A study of Mus musculus with 8 samples.

Results

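The genes described are 8 claudins of the mouse, Cldn2, Cldn3, Cldn4, Cldn5, Cldn6, Cldn7, Cldn9 and Cldn12, in epiblasts isolated at embryonic day 5.5. They were taken by symbol from a table of 52636 gene identifiers, of which 52403 had a symbol, and all 8 were among the 18321 genes that passed a filter on low counts and were tested. They were picked with their levels under 4OHT and vehicle in view, so those levels are given as a description, and calls on those contrasts are counted with nothing read from them. RNA was sequenced from 8 libraries, each made from 7 ng of RNA of a pool of 10 epiblasts. Every embryo, controls included, had the genotype Sox2Cre;CRAFR26. Sox2Cre is a recombinase transgene active in the epiblast, and CRAFR26 is an inducible cRAF construct that switches on the kinase ERK when 4-hydroxytamoxifen (4OHT) is given. The line was made by injecting targeted embryonic stem cells into morulas, and it came from 2 clones of those cells, clone 4 and clone 8. Each clone gave 2 libraries of embryos kept for 4 h in 250 nM 4OHT and 2 libraries of embryos in ethanol vehicle. The titles of the vehicle libraries say 0 h where their treatment label says 4 h, so a difference between 4OHT and vehicle may also hold 4 h of culture. Nothing in the labels says whether the replicates came from separate litters, so the p-values measure only the spread between these pools.

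Claudins are membrane proteins whose loops meet those of the neighbouring cell in the tight junction, the seal near the apical edge of an epithelium. Which claudins a cell makes sets whether that seal is closed to ions or lets some of them pass. The epiblast at this stage is a polarised epithelium around a young cavity, wrapped by the visceral endoderm, an absorptive epithelium, and capped by the extraembryonic ectoderm, the source of trophoblast. Tight junctions occur in all of these layers. The outer layers were dissected away before RNA was extracted, but RNA of the markers of both was found in every library, at the levels given below.

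The libraries held 33341813 to 37960284 counts in vehicle and 56384556 to 72497719 in 4OHT. Levels are given in CPM, counts per 1000000 of the library size as scaled by TMM. The 10 epiblast markers were above 0 in every library, with a summed level of 6070 to 7680 CPM. None of 15 visceral endoderm markers and none of 15 extraembryonic ectoderm markers was at 0 in any library. The visceral endoderm markers summed to 2090 and 1570 CPM in vehicle clone 4, 3420 and 3360 in vehicle clone 8, 4520 and 5300 in 4OHT clone 4, and 1420 and 2660 in 4OHT clone 8. The extraembryonic ectoderm markers summed, in the same order of groups, to 879 and 570, 232 and 280, 729 and 754, and 891 and 709 CPM. In such pools, fewer cells of a type and less RNA per cell cannot be told apart. Of 11 genes known to respond to ERK, 5 rose with 4OHT in clone 8 (edgeR, adjusted p under 0.05): Egr1, Fos, Dusp6, Spry4 and Fosl1, where 8% of all tested genes rose. In clone 4 edgeR called 0 of the 11, with 4 at an unadjusted p under 0.05, as 9.9% of tested genes were, and DESeq2 called 2. For 2 of the 11, Fos and Fosl1, edgeR called the difference of the responses, clone 8 minus clone 4, as it did for 2.83% of tested genes. On the log2 scale it was 3.26 (SE 0.71, edgeR adjusted p = 0.0476) and 2.66 (SE 0.41, edgeR adjusted p = 0.0262). Leaving out each library in turn, it ranged from 2.16 to 3.88 for Fos and from 2.29 to 3.06 for Fosl1. The call was kept in 2 of those 8 fits for Fos and in 3 of 8 for Fosl1. Mean Fos was 18.1 CPM in vehicle clone 4, 11.5 in 4OHT clone 4, 5.31 in vehicle clone 8 and 32.3 in 4OHT clone 8. Mean Fosl1, in that order, was 27.7, 18.3, 4.77 and 20 CPM. In clone 4, 7 of the 11 had a positive log2 fold change, with Egr1 at 2.32 (SE 0.64).

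The claudins lie at 6 places in the genome, and in the mm10 (GRCm38) annotation of GENCODE 4 of them, Cldn3, Cldn4, Cldn5 and Cldn9, are genes of 1 exon. Cldn3 (chr5:134986214-134987472, plus strand) and Cldn4 (chr5:134945119-134946934, minus strand) are neighbours with 39279 bases between them. Cldn6 (chr17:23679249-23682446, plus strand) and Cldn9 (chr17:23682584-23684026, minus strand) end 137 bases apart, with their 3′ ends facing. Cldn2 lies at chrX:139800828-139811386, Cldn5 at chr16:18776847-18778262, Cldn7 at chr11:69964779-69967885, all on the plus strand, and Cldn12 at chr5:5489537-5514958 on the minus strand. The 2 neighbouring pairs are also the closest in coding sequence, with 73.1% identical bases between Cldn6 and Cldn9 and 69.8% between Cldn3 and Cldn4. Their longest runs of shared bases were 37 and 35. An exon of Cldn3 shares 40 bases with Wbscr25 on the other strand, and the use of strand in counting is not given in the sources used here.

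The promoters of 4 claudins are shown because these genes carry the patterns described. They are Cldn2, whose level followed the mean of the visceral endoderm markers, and Cldn6, the most abundant. The others are the neighbours Cldn3 and Cldn4, the pair of claudins whose levels varied most alike across libraries. Each promoter runs from 250 bases before to 50 after the start that RefSeq gives on GRCm38.p6. An entry was found for 7 of the 8 claudins, all but Cldn9. Capitals mark matches, on either strand, to any of 9 motifs. The core promoter motifs were the site of the general factor TBP (TATAAA), the site of the factor NF-Y (CCAAT) and the site of the factor Sp1 (GGGCGG). Those of regulators were the E-box bound by Snail and Zeb repressors (CACCTG), the site of Grainyhead-like factors (AACNGGTT), the site of ETS factors with a CpG (CCGGAAG), the site of AP-1 (TGANTCA), the site of GATA factors (AGATAA) and the site of AP-2 factors (GCCNNNGGC). Matches may overlap.
Cldn2, chrX:139800558-139800857, plus strand: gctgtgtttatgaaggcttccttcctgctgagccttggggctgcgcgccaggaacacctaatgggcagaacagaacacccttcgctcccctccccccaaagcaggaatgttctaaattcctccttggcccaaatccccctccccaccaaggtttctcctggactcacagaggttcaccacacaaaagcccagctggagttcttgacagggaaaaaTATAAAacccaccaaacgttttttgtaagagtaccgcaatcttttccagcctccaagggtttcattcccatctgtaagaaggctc
Cldn3, chr5:134985964-134986263, plus strand: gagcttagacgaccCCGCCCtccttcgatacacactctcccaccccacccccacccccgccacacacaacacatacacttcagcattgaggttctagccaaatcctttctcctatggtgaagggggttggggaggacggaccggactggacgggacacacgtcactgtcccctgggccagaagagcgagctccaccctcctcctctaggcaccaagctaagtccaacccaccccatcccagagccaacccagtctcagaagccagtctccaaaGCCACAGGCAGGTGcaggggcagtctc
Cldn4, chr5:134946885-134947184, minus strand: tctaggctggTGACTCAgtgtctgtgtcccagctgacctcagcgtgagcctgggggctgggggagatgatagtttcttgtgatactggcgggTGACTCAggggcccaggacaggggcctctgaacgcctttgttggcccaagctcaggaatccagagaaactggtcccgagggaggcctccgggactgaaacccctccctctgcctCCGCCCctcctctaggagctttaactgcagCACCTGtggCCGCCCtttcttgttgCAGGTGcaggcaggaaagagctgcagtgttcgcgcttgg
Cldn6, chr17:23679115-23679414, plus strand: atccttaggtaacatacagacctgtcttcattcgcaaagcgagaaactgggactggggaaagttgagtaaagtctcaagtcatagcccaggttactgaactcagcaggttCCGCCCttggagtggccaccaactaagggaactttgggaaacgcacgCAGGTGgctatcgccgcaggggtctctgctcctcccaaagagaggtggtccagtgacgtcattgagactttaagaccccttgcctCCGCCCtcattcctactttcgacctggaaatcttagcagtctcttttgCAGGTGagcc

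The Cldn2 window held 1 match, the TBP motif beginning at position -35 from the start, and 13.6% of all 32851 promoters in the table hold that motif. The Cldn4 window held 2 AP-1 matches, at -240 and -158, a motif present in 7.81% of promoters. It also had 2 Sp1 motifs (35.7% of promoters) and 2 Snail and Zeb E-boxes (20.2% of promoters), one on each side of the start. The Cldn3 window shared with it the Sp1 motif and the E-box, with 1 of each, and had an AP-2 match (16.6% of promoters) whose last base is the first of the E-box. Cldn6 had 2 Sp1 motifs and 2 E-boxes, and 37.4% and 11.2% of promoters hold the NF-Y and GATA motifs, which matched in none of these 4 windows. Among the claudins not printed, the Grainyhead-like motif matched in Cldn5 (2.09% of promoters), and the ETS motif matched in Cldn7 and Cldn12 (8.86% of promoters). The Cldn3 and Cldn4 windows were 60.7% and 61.0% G or C, against a median of 52.7% over all promoters, and those of Cldn6 and Cldn2 were 52.3% and 51.3%. A match of letters is a description of the window and no evidence of binding.

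Per kilobase of exon, the scale on which genes can be compared, Cldn6 was the most abundant claudin at 275 ± 49.4 CPM per kb (SD, n = 8 libraries). Cldn6 is known from embryonic epithelia and pluripotent cells. Cldn7, an epithelial claudin that binds the adhesion protein EpCAM, stood at 110 ± 17.7 CPM per kb. Cldn4 followed at 65.8 ± 19.3 and Cldn3 at 33.8 ± 8.9 CPM per kb, then Cldn12 at 8.92 ± 1.41. The order from Cldn6 down to Cldn12 was the same in 8 of 8 libraries.

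Cldn2, at 3.65 ± 3.07 CPM per kb, was below Cldn12 in 7 libraries and could not be ranked against Cldn9, at 3.41 ± 0.568, which it exceeded in 2. Cldn5 was lowest in 8 of 8 libraries, at 0.319 ± 0.238 CPM per kb. The summed level of the 8 was 385 to 567 CPM per kb. Cldn6 alone gave 45.6% to 62% of that sum, Cldn7 18.1% to 26%, Cldn4 5.52% to 19.6% and Cldn3 3.61% to 9.51%. Cldn2 never gave more than 1.68%. These shares depend on the length used, here that of all annotated exons. Over the exons of transcripts tagged basic in GENCODE, the mean of Cldn7 was 145 CPM per kb, with Cldn6, Cldn4 and Cldn3 unchanged. The composition stood apart in vehicle clone 8, where Cldn6 and Cldn7 together made up 88% and 83.6% of the sum, against 67.6% to 76.6% in the other 6 libraries.

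**Figure D1:**
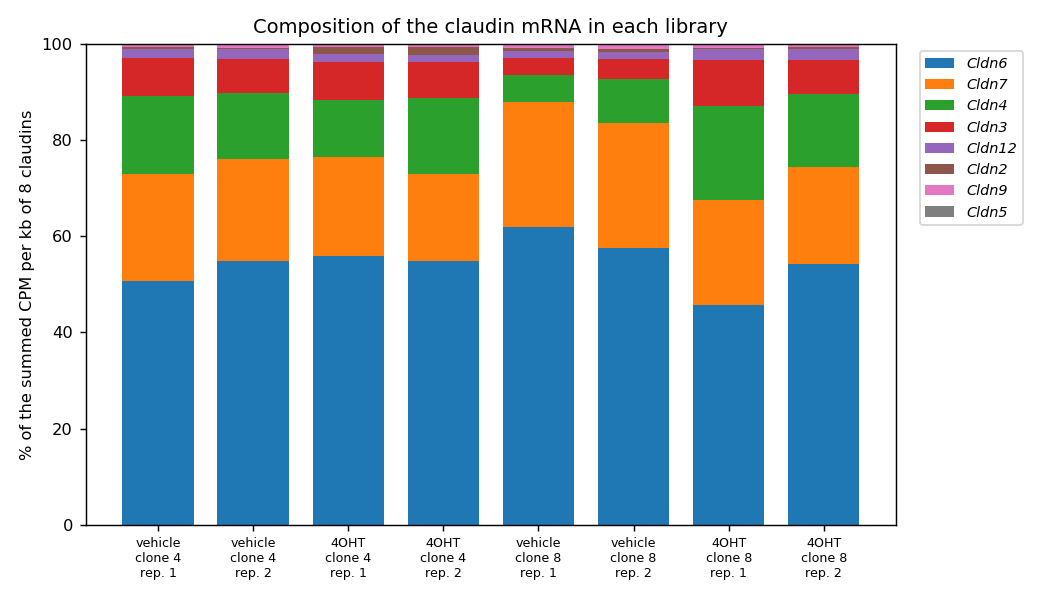
Share of each claudin (stacked bars, percent of the summed CPM per kb of the 8 claudins) in each of the 8 libraries. Cldn6 and Cldn7 fill 67.6% to 88% of every bar, and the Cldn4 and Cldn3 segments are narrowest in both vehicle clone 8 libraries.

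Cldn2 forms a channel for small cations and water between cells and makes an epithelium leaky. It stood at 5.56 and 4.32 CPM in vehicle clone 4, 24.0 and 31.7 in 4OHT clone 4, 11 and 10.4 in vehicle clone 8, and 4.14 and 6.11 in 4OHT clone 8. Both 4OHT libraries of clone 4 were above the other 6 libraries, and in clone 8 both 4OHT libraries were below both vehicle libraries. The fitted log2 fold change of 4OHT against vehicle was 2.49 (SE 0.27) in clone 4 and -1.06 (SE 0.26) in clone 8, and the log2 difference of these responses was -3.55 (SE 0.37). Cldn6 shared this arrangement, higher with 4OHT in clone 4 and lower in clone 8 with no overlap, as 6.74% of tested genes did, and no claudin had the opposite arrangement, which 6.39% of genes had.

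The mean of the 15 visceral endoderm markers was higher with 4OHT in clone 4 and lower in clone 8, as the level of Cldn2 was. Their mean log2 CPM differed between 4OHT and vehicle by 1.81 in clone 4 and by -0.89 in clone 8, where the log2 CPM of Cldn2 differed by 2.48 and -1.08. Relative to the marker mean, the log2 difference of Cldn2 with 4OHT was thus 0.67 in clone 4 and -0.19 in clone 8. Within libraries, the log2 CPM of Cldn2 minus the marker mean ranged from -3.52 to -1.98, and both 4OHT clone 4 libraries were at the upper end. In clone 4, edgeR called 0 of the 15, where it called 0.0382% of tested genes. In that contrast 14 had an unadjusted p under 0.05, against 9.9% of tested genes. DESeq2 called 8, and its count over all genes is in the closing section. In clone 8, edgeR called 4 lower (Amn, Apoa1, Ttr and Hnf4a) and 1 higher (Rhox5, log2 fold change 0.58), where 8.6% of tested genes were lower and 8% higher, while Gata4 and Sox17 had log2 fold changes of 0.05 and -0.05. The part of the visceral endoderm markers in the Cldn2 values was not tested. Cldn2 is X-linked, and 4OHT clone 4 replicate 2 had a sum of 4 Y-linked genes of 3.64 CPM against 51.6 to 133 in the other 7 libraries. Replicate 1 of that group was at 56.2 CPM of Y-linked genes. Xist stood at 8.52 CPM in replicate 1 and 21.7 in replicate 2 of that group, and at 8.52 to 62 over the 8 libraries. The part of the sex of the embryos in the Cldn2 values was not tested.

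**Figure D2:**
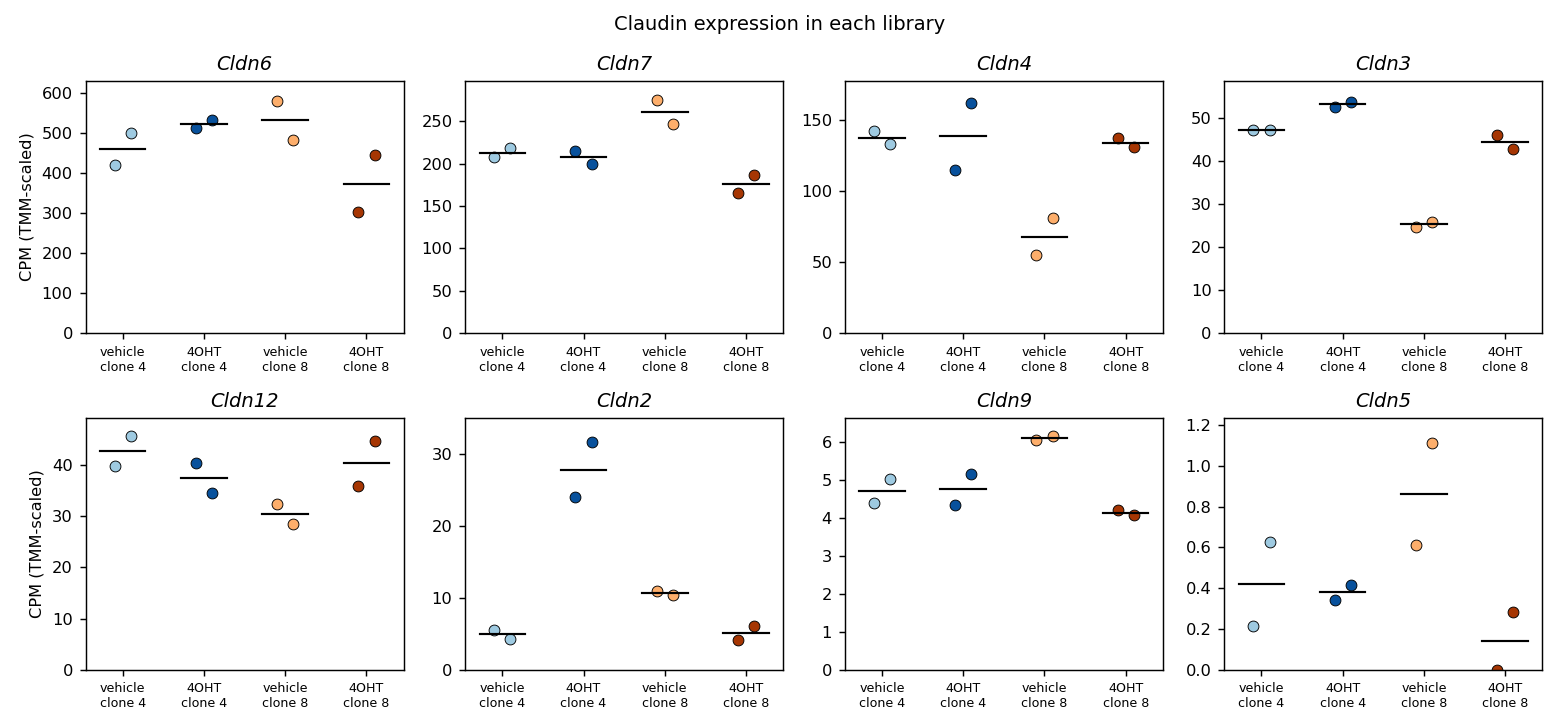
Level of each claudin in CPM (vertical axis from 0, linear) in the 4 groups, with 1 point per library and a bar at the mean of 2 libraries. Both 4OHT clone 4 points of Cldn2 lie at 24.0 and 31.7 CPM above all others, and both vehicle clone 8 points are the lowest for Cldn3, Cldn4 and Cldn12 and the highest for Cldn7 and Cldn9.

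Cldn3 and Cldn4 are barrier-forming claudins of many epithelia and the receptors of a clostridial enterotoxin. Cldn3 stood at 47.2 and 47.1 CPM in vehicle clone 4, 52.6 and 53.8 in 4OHT clone 4, 24.7 and 25.8 in vehicle clone 8, and 46.1 and 42.7 in 4OHT clone 8. The vehicle clone 8 libraries were thus low, and the other 6 lay between 42.7 and 53.8 CPM. The log2 fold change with 4OHT was 0.18 (SE 0.13) in clone 4 and 0.81 (SE 0.13) in clone 8.

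Cldn4 stood at 142 and 133 CPM in vehicle clone 4, 115 and 162 in 4OHT clone 4, 54.6 and 81.2 in vehicle clone 8, and 137 and 131 in 4OHT clone 8. Again the vehicle clone 8 libraries were below all others, while the 4OHT clone 8 libraries fell inside the range of the clone 4 libraries. The log2 fold change was 0.02 (SE 0.20) in clone 4 and 0.98 (SE 0.21) in clone 8. Over the 8 libraries the log2 CPM of Cldn3 and Cldn4 had a Pearson r of 0.91, the highest among the 28 pairs of claudins. These libraries share the groups, the depth and the dissected tissue, so r is given as a description.

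The mean of the 15 extraembryonic ectoderm markers was also low in vehicle clone 8. In clone 8, edgeR called 10 of the 15 higher with 4OHT, where 8% of tested genes were, and 0 lower. Eomes, Sox3 and Rhox6, at means of 42.7, 8.21 and 11.7 CPM in vehicle clone 8, were above their vehicle clone 4 means of 33, 4.91 and 10.9. For the list, the mean log2 CPM differed between 4OHT and vehicle by 0.04 in clone 4 and by 1.35 in clone 8. In clone 8, Cldn3 differed by 0.81 and Cldn4 by 1.01 on that scale, which leaves -0.53 and -0.34 relative to the markers. In vehicle clone 8 replicate 1 the markers had a mean of 3.59 and in replicate 2 of 3.87 in log2 CPM, against 4.71 to 5.32 in the other 6 libraries. The part of these markers in the Cldn3 and Cldn4 values was not tested.

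**Figure D3:**
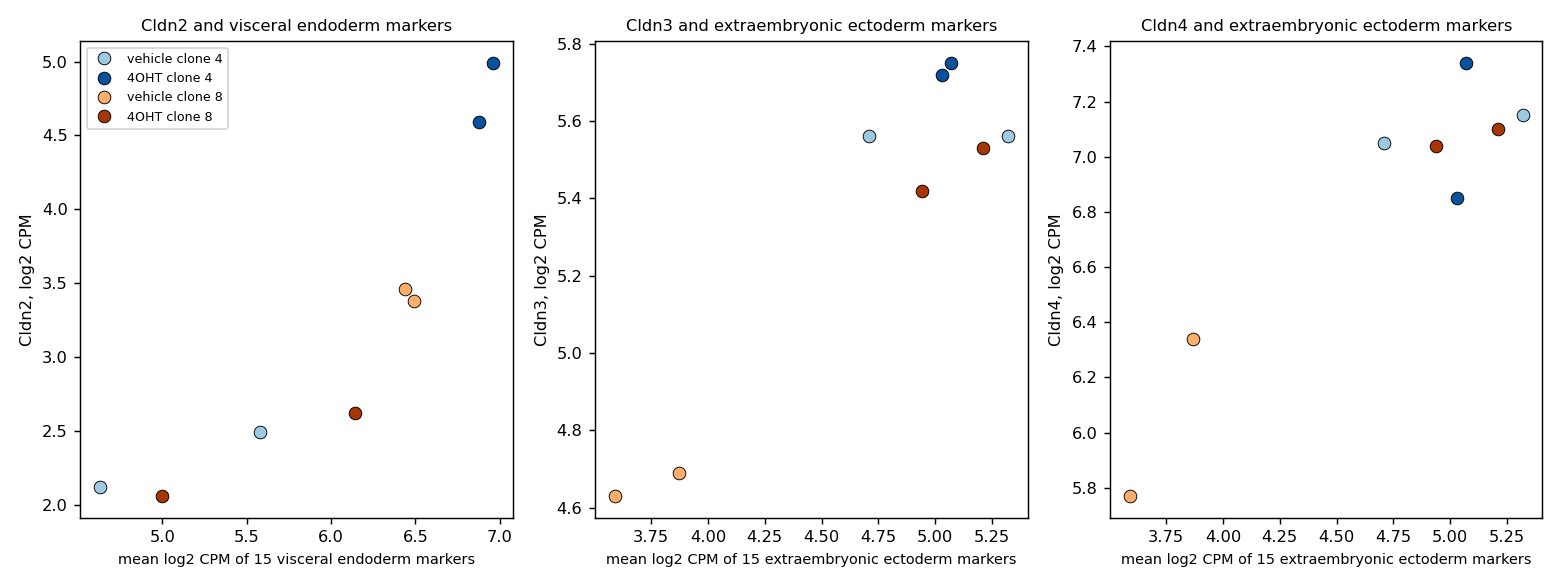
Log2 CPM of Cldn2 against the mean log2 CPM of 15 visceral endoderm markers, and of Cldn3 and Cldn4 against that of 15 extraembryonic ectoderm markers, with 1 point per library coloured by group and axes that do not start at 0. The 4OHT clone 4 points are at the upper right for Cldn2, and the vehicle clone 8 points are apart at the lower left for Cldn3 and Cldn4.

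Cldn6 stood at 420 and 500 CPM in vehicle clone 4, 514 and 534 in 4OHT clone 4, 581 and 484 in vehicle clone 8, and 303 and 445 in 4OHT clone 8. The 4OHT clone 8 libraries were the farthest apart of any pair, and no group was outside the range of the other 6 libraries. The log2 fold change was 0.19 (SE 0.18) in clone 4 and -0.51 (SE 0.18) in clone 8.

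Cldn7 stood at 208 and 218 CPM in vehicle clone 4, 215 and 200 in 4OHT clone 4, 275 and 247 in vehicle clone 8, and 165 and 186 in 4OHT clone 8. Its clone 4 libraries lay between the high vehicle clone 8 libraries and the low 4OHT clone 8 libraries. The log2 fold change was -0.04 (SE 0.11) in clone 4 and -0.57 (SE 0.11) in clone 8. The mean log2 CPM of the 10 epiblast markers differed with 4OHT by -0.31 in clone 4 and -0.30 in clone 8. Relative to it, the log2 difference of Cldn7 was 0.27 in clone 4 and -0.28 in clone 8, and that of Cldn6 was 0.50 and -0.23.

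Cldn9, a close relative of Cldn6 known for its need in the inner ear, stood at 4.39 and 5.03 CPM in vehicle clone 4 and at 4.34 and 5.16 in 4OHT clone 4. It stood at 6.05 and 6.15 in vehicle clone 8 and at 4.20 and 4.07 in 4OHT clone 8. As for Cldn7, the vehicle clone 8 libraries were the highest and the 4OHT clone 8 libraries the lowest. Its log2 fold change was 0.01 (SE 0.24) in clone 4 and -0.56 (SE 0.24) in clone 8. Cldn9 and Cldn7 had an r of 0.84 over the libraries, and Cldn9 and its neighbour Cldn6 one of 0.61.

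Cldn12, a claudin without the tail motif by which the others bind the scaffold proteins of the junction, stood at 39.8 and 45.6 CPM in vehicle clone 4 and 40.4 and 34.6 in 4OHT clone 4. In clone 8 it was at 32.4 and 28.5 in vehicle and 36.0 and 44.6 in 4OHT. The vehicle clone 8 libraries were the lowest, and the log2 fold change was -0.19 (SE 0.17) in clone 4 and 0.41 (SE 0.17) in clone 8.

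Cldn5, the main claudin of endothelium, was near the limit of these libraries. It had 8 and 21 counts in vehicle clone 4, 19 and 30 in 4OHT clone 4, 22 and 37 in vehicle clone 8, and 0 and 17 in 4OHT clone 8. In CPM this was 0.214 and 0.625, 0.341 and 0.417, 0.613 and 1.11, and 0 and 0.284 in the same order, where the library at 0 allows up to 0.0481 CPM (3 counts). The log2 fold change of -0.14 in clone 4 had an SE of 1.16 and that of -2.59 in clone 8 an SE of 1.23. Of 8 endothelial markers, Emcn was at 0 in all 8 libraries. Cdh5 reached 10.0 CPM in vehicle clone 4 replicate 1 and at most 0.682 in the others. The summed level of the list was 36.5 to 58.6 CPM, of which Egfl7 gave 27.5 to 49.3.

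Under an adjusted p under 0.05 in edgeR, 1 of the 8 claudins, Cldn2, was called in clone 4, where 0.0382% of all tested genes were called. In clone 8 the count was 4 of 8, Cldn3 and Cldn4 higher and Cldn2 and Cldn7 lower, where 16.6% of tested genes were called, 8% higher and 8.6% lower. For the difference of the responses it was 1 of 8, Cldn2, with 2.83% of genes called. The 4OHT and vehicle libraries of clone 8 did not overlap for 8 of 8 claudins, nor for 60% of tested genes. Since the claudins were picked on these contrasts, nothing is read from those counts. Vehicle clone 8 lay outside the range of the other 6 libraries for 5 of the 8 claudins and for 30.7% of tested genes. The same held of 4OHT clone 4 for 2 claudins and 13.1% of genes, of 4OHT clone 8 for 2 and 18.9%, and of vehicle clone 4 for 0 and 7.94%. The calls depended on single libraries. Without vehicle clone 8 replicate 1, 0 of 8 claudins and 0 of all tested genes were called in any contrast. The clone 4 call of Cldn2 was kept in 2 of 8 fits that left out 1 library, those without either 4OHT clone 8 library, with log2 fold changes of 2.28 to 2.69 over the 8 fits.

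**Figure D4:**
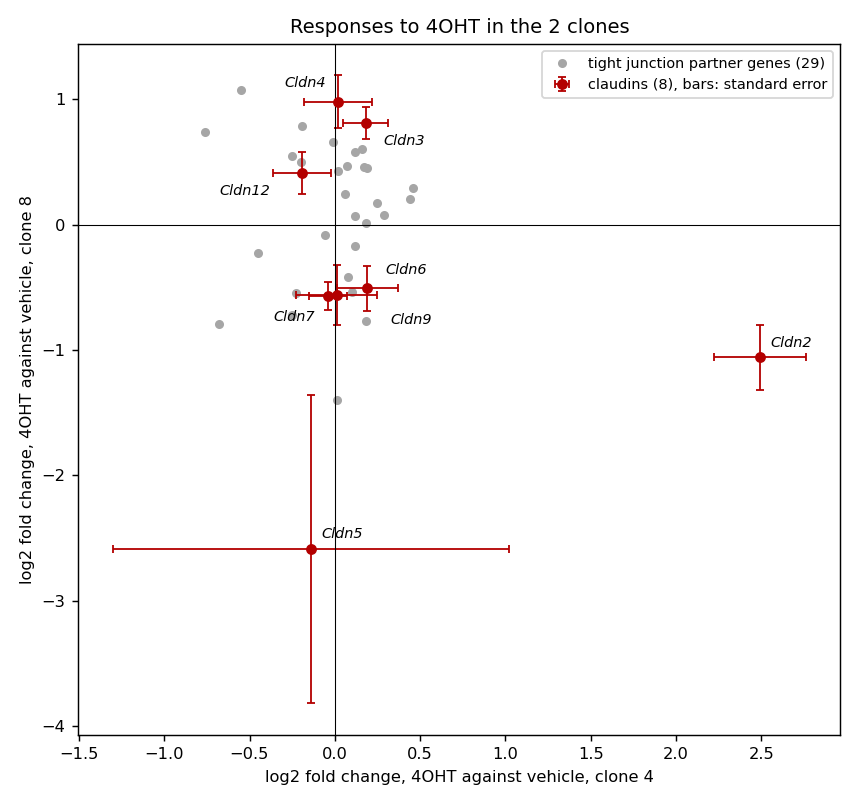
Log2 fold change of 4OHT against vehicle in clone 4 (horizontal) and clone 8 (vertical) for the 8 claudins (red, bars are standard errors) and 29 tight junction partner genes (grey). Cldn2 lies apart at 2.49 in clone 4 and -1.06 in clone 8, and the other claudins spread mostly along the clone 8 axis.

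The clone comparison, averaged over the treatments, is another contrast than those on which the claudins were picked. It uses the same 8 libraries, and the claudins were chosen with earlier results of these data known. Its tests are thus not independent of that choice and are given as a description. In the edgeR fit with treatment as an additive term, 0 of 8 claudins and 0% of tested genes differed between the clones. At an unadjusted p under 0.05 there were 2 claudins and 2921 genes, 15.9% of those tested. The log2 difference of Cldn3, clone 8 minus clone 4, was -0.58 (SE 0.15, edgeR adjusted p = 0.196), with 4 clone 8 libraries at 24.7 to 46.1 CPM and 4 clone 4 libraries at 47.1 to 53.8. It was the 1 claudin whose clones did not overlap, as 8.29% of tested genes did not, and DESeq2 called it with a log2 difference of -0.57 and an adjusted p of 0.0173. Cldn4 differed by -0.53 (SE 0.22, edgeR adjusted p = 0.28). Cldn6, Cldn7 and Cldn9 had log2 differences of -0.14 (SE 0.17), 0.03 (SE 0.12) and 0.08 (SE 0.20). Those of Cldn2, at -0.69 (SE 0.68), and Cldn5, at -0.15 (SE 0.94), had errors about as large as themselves or larger. That of Cldn2 ran from -1.36 without vehicle clone 4 replicate 2 to -0.01 without 4OHT clone 8 replicate 1.

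Of 28 other claudins looked for, 27 had a row and 8 passed the filter: Cldn1, Cldn8, Cldn10, Cldn15, Cldn19, Cldn23, Cldn26 (listed as Tmem114) and Cldn34c1. Cldn34c1 stood at 1.59 to 3.55 CPM and Tmem114 at 0.603 to 2.12 CPM, and Tmem114 was above Cldn34c1 in both 4OHT clone 8 libraries and in 4OHT clone 4 replicate 1. Cldn1, Cldn8, Cldn10, Cldn15, Cldn19 and Cldn23 stayed at or below 0.901 CPM in every library. In edgeR and in DESeq2 0 of the 8 were called in any contrast, and DESeq2 gave no adjusted p for 6 or 7 of them. In edgeR 1 had an unadjusted p under 0.05, Tmem114 with 4OHT in clone 8 (log2 fold change 1.36, adjusted p = 0.0904).

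The proteins that claudins work with at the junction were taken as a list of 29 genes, all of which were tested. Epcam, which holds Cldn7 in a complex, was the highest per length at 235 ± 20.8 CPM per kb (SD, n = 8), followed by the adhesion molecule F11r (JAM-A) at 115 ± 15.7 and the apical polarity protein Crb3 at 48.9 ± 10.5. Epcam ranged from 460 to 592 CPM with every group overlapping the rest. In clone 4, edgeR called 0 of 29, 5 had an unadjusted p under 0.05, where 9.9% of tested genes did, and DESeq2 called 1. The median log2 fold change of the list there was 0.07, against 0 over all tested genes.

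In clone 8, 8 of the 29 changed with 4OHT, where 16.6% of all tested genes did, and the median log2 fold change was 0.20 against 0.07 over all genes. Of these, 4 rose, of which 3 are given, and 4 fell. Patj, a partner of the Crumbs complex, rose by 0.58 on the log2 scale (SE 0.16), its relative Mpdz by 0.74 (SE 0.21) and Ildr1, a protein of tricellular corners, by 0.79 (SE 0.20), with edgeR adjusted p of 0.0365, 0.0431 and 0.0308. The 4 that fell were Ybx3, Crb3, Jam3 and Spint2.

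Ybx3, a factor that binds ZO-1 and nucleic acids, fell by 1.40 (SE 0.25, edgeR adjusted p = 0.0112). Its vehicle clone 8 libraries, at 175 and 134 CPM, were above the other 6, which lay at 41.6 to 75.1. Crb3 fell by 0.77 (SE 0.14, edgeR adjusted p = 0.0113), from 104 and 88.2 CPM to 56.9 and 56.0, below every other library. The adhesion molecule Jam3 fell by 0.79 (SE 0.23) and Spint2, an inhibitor of membrane serine proteases, by 0.55 (SE 0.15), with edgeR adjusted p of 0.0486 and 0.0371. In clone 4 the log2 fold change of Jam3 was nearly as large, at -0.68 (SE 0.23). Those of Spint2, Crb3 and Ybx3 there were -0.23 (SE 0.15), 0.18 (SE 0.14) and 0.01 (SE 0.24). Without vehicle clone 8 replicate 1 none of the 8 was called. Crb3 and Ybx3 were called in the other 7 fits that left out 1 library, Patj and Spint2 in 2 of 8, Jam3 and Ildr1 in 1 of 8 and Mpdz in 0 of 8.

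The responses of 2 partners differed between the clones by the test of the difference itself, where 2.83% of genes were called. Mpdz stood at 21.4 and 24.3 CPM in vehicle and 11.4 and 15.6 in 4OHT of clone 4, and at 17.9 and 14.4 in vehicle and 26.1 and 27.6 in 4OHT of clone 8. Its log2 difference of responses was 1.49 (SE 0.30, edgeR adjusted p = 0.0418), called in 2 of 8 fits without 1 library, those without either 4OHT clone 8 library. For Crb3 it was -0.95 (SE 0.19, edgeR adjusted p = 0.0429), called in 3 of 8, those without vehicle clone 8 replicate 2 or either 4OHT clone 8 library. The adjusted p ranged over those fits from 0.0295 to 0.186 for Mpdz and from 0.0372 to 0.176 for Crb3. Between the clones over both treatments, edgeR called 0 of 29, as it called 0% of tested genes. Of the 29, 4 had an unadjusted p under 0.05, where 15.9% of tested genes did. DESeq2 called 2, and its count over all genes is in the closing section.

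A list of 17 transcription regulators of epithelia was read beside the claudins. In clone 4, 0 of 17 were called in edgeR, with 5 at an unadjusted p under 0.05, against 9.9% of tested genes, and DESeq2 called 2. In clone 8, 5 rose with 4OHT: Tfap2c (log2 fold change 2.04), Klf5 (1.90), Grhl3 (1.72), Cdx2 (1.65) and Grhl1 (1.61). Of all tested genes 8% rose and 8.6% fell there. The Grainyhead-like factors Grhl1 and Grhl3 are known activators of junction genes in surface epithelia, and Tfap2c and Cdx2 are also 2 of the 15 extraembryonic ectoderm markers. The 2 that fell there were Hnf4a (-1.80), a nuclear receptor of endodermal epithelia and 1 of the 15 visceral endoderm markers, and Ovol2 (-0.92), a repressor of mesenchymal genes. Grhl2 had a log2 fold change of 0.52 (SE 0.20, edgeR adjusted p = 0.11). Grhl3 stood at 7.41 and 7.74 CPM in vehicle clone 8 and at 16.2 to 27.1 in the other 6 libraries. Cldn3 and Cldn4 were also lowest in vehicle clone 8, a group outside the range of the other 6 libraries for 30.7% of tested genes. A link of Grhl3 to these claudins was not tested. These 7 calls were lost without vehicle clone 8 replicate 1, and that of Ovol2 was kept in 2 of 8 fits, that of Hnf4a in 5 of 8 and the others in 7 of 8.

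The responses of 4 regulators, of which 3 are given, differed between the clones by the test of the difference, where 2.83% of tested genes were called. Tfap2c had a log2 difference of 2.63 (SE 0.34, edgeR adjusted p = 0.0196) and Grhl3 of 1.77 (SE 0.31, edgeR adjusted p = 0.0331). Hnf4a had one of -4.39 (SE 0.60, edgeR adjusted p = 0.023). Hnf4a stood at 6.15 and 2.29 CPM in vehicle clone 4, 26.2 and 24.7 in 4OHT clone 4, 16.8 and 22.7 in vehicle clone 8, and 4.16 and 7.12 in 4OHT clone 8. As for Cldn2, its 4OHT clone 4 libraries were above the other 6, and that group was outside their range for 13.1% of tested genes. The call of Grhl3 was kept in 2 of 8 fits without 1 library, those without either 4OHT clone 8 library. Those of Tfap2c and Hnf4a were kept in 5 of 8 and lost without vehicle clone 8 replicate 1 or either 4OHT clone 4 library.

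Among 9154 genes of at least median expression that are not claudins, the genes whose log2 CPM followed each claudin most closely over the 8 libraries were found by Pearson's r, given without a test because the best of so many is always high. For Cldn2 these were Slc13a4 (r = 0.984), Pqlc2 (0.984) and Mpv17 (0.982). Slc13a4, a sulfate transporter, stood at 8.91 and 7.11 CPM in vehicle clone 4, 39.8 and 43.4 in 4OHT clone 4, 18.2 and 16.8 in vehicle clone 8, and 4.59 and 7.87 in 4OHT clone 8, with 4OHT clone 4 the highest and vehicle clone 8 the next group, as for Cldn2. For Cldn3 they were Nup62cl (0.996), Ak4 (0.983) and Patl1 (0.981). Nup62cl was at 50.3 and 60.4 CPM in vehicle clone 8 and at 134 to 183 in the other 6 libraries. For Cldn4 they were Ticrr (0.991), Nup210 (0.991) and Dgcr8 (0.989), with vehicle clone 8 again the lowest group for each.

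The genes nearest to Cldn7 were Pfdn2 (0.985), Trip6 (0.984) and Nop53 (0.98), and those nearest to Cldn9 were Cryzl1 (0.975), Txnl4a (0.968) and Mrpl19 (0.968), all 6 highest in vehicle clone 8. Cldn12 was followed by Rprd1a (0.983), Ccdc186 (0.976) and Pabpc1 (0.95), all 3 lowest there. Cldn6 was followed by Naaa (0.972), Gm8210 (0.956) and Idh2 (0.954). The r of the scarce Cldn5 with its nearest genes, Sept6, Atp6v1e1 and Nt5m, was lower, at 0.943, 0.928 and 0.928.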

How the data were processed

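RNA was sequenced in 8 epiblast libraries, and per the submitters' processing notes bcl2fastq 2.19.1 and STAR 2.5.3a were used with the build mm10. The authors deposited raw counts per Ensembl gene, as the whole numbers and differing totals show, and the counting program, annotation release and use of strand are not given in the sources used here. Positions and exon lengths came from the GENCODE annotation of GRCm38, promoters from RefSeq. Genes were filtered with filterByExpr over the 4 groups (minimum count 10), scaled by TMM and tested with the edgeR 4.0.16 quasi-likelihood test in R 4.3.3. Responses within a clone and their difference came from a fit of the 4 groups, the clone term from an additive fit, with Benjamini-Hochberg adjustment over 18321 genes and a threshold of 0.05. Each SE is the absolute log2 change divided by the root of its F, and a prior of 2 counts went into log2 CPM. The steps were also run on simulated counts with the same spread for all genes, unlike these data, and no result here rests on that run. The alternatives, with DESeq2 1.42.0 among them, are in the closing section. The claudins and the gene lists were chosen with earlier results of these data known. Named are all 8 claudins, the other claudins that passed the filter, from each further list the called genes or else the 3 highest per kb, marker genes as values, and the 3 genes most like each claudin. 1 called gene of each further list is not reported here. Lists of parietal endoderm, blood, decidua and primitive streak markers summed to 310 to 671, 4.09 to 24, 28.1 to 38.6 and 49.2 to 184 CPM per library.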

Additional observations from a re-analysis of the deposited data

Results flagged for a closer look

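Results stood out here where the response to 4OHT differed between the clones. For Cldn2 and Cldn6 the 4OHT libraries were above the vehicle libraries in clone 4 and below them in clone 8, with log2 differences of the responses of -3.55 and -0.70. These claudins were picked with their responses in view, so nothing is read from these differences, of which edgeR called that of Cldn2 and not that of Cldn6 (adjusted p = 0.151). For 7 other genes given here, of the junction partners, regulators and ERK response genes, edgeR called the difference itself. The log2 difference was 1.49 for Mpdz and -0.95 for Crb3 among the junction partners. Among the regulators it was 1.77 for Grhl3, 2.63 for Tfap2c and -4.39 for Hnf4a, and among the ERK response genes 3.26 for Fos and 2.66 for Fosl1. None of these genes kept its call in all 8 fits without 1 library. By the same test, edgeR called 7 of the 15 visceral endoderm markers, Hnf4a among them, all with a negative difference. It called 6 of the 15 extraembryonic ectoderm markers, Tfap2c among them, all with a positive difference. Of all tested genes 2.83% were called. All groups hold 2 libraries, too few for a check of single outlying libraries.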

How the results depend on the processing

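Across RLE or library-total scaling, a minimum of 10 counts per library, no filter, DESeq2 and the replicate block, the log2 fold changes of 6 claudins with 4OHT kept their sign in both clones; those of Cldn4 (-0.01 to 0.03) and Cldn5 (-0.14 to 0.12) in clone 4 did not. Counts of calls moved more, and the cause was not tested. For the difference of the responses, claudins called were 3 with no filter, 4 with DESeq2 and 0 at an adjusted p under 0.01, and junction genes 1 with library totals, 4 with no filter, 4 with DESeq2 and 0 at 0.01. Between the clones, no filter called 2 claudins and 1 junction gene, DESeq2 1 and 2. In clone 8, claudins and junction genes called were 0 and 0 at 0.01, and 0 and 0 in a fit of the 4 libraries of that clone alone. In clone 4, DESeq2 called 1 junction gene and an adjusted p under 0.01 left 0 claudins. Same-numbered replicates did not deviate together (r -0.03 to 0.09), so the numbers were not taken to pair samples; a replicate block took the claudins called in clone 4 to 0 and left those in clone 8 within 1.5 times of the main count. Leaving out each library in turn, claudins called ranged from 0 to 1 in clone 4, 0 to 6 in clone 8 and 0 to 3 for the difference, and junction genes from 0 to 7 in clone 8 and 0 to 5 for the difference. The log2 fold change with 4OHT in clone 4 then changed sign for Cldn4 (-0.25 to 0.24), Cldn5 (-0.71 to 0.82), Cldn7 (-0.09 to 0.01) and Cldn9 (-0.12 to 0.13). In clone 8 every claudin kept its sign. In those fits the log2 difference between the clones ranged from -1.36 to -0.01 for Cldn2. It changed sign for Cldn5 (-0.68 to 0.49), Cldn6 (-0.27 to 0.03), Cldn7 (-0.07 to 0.11) and Cldn9 (-0.02 to 0.19). Over all tested genes, 7, 3041 and 519 were called in clone 4, in clone 8 and for the difference; no filter gave 728 in clone 4, 2114 for the difference and 938 between the clones, and DESeq2 468, 1864, 666 for clone 4, the difference and the clones. In clone 4 the count was also 78 with the minimum of 10 counts, 0 with the block, 220 in a fit of that clone alone and 0 at an adjusted p under 0.01; in clone 8 it was 0 in a fit of that clone alone and 272 at 0.01; for the difference it was 0 at 0.01. Between the clones, 0 genes became 2 with the minimum of 10 counts, 1 with the block and 21 as the mean of the clone differences within each treatment.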
